A study of Cavia porcellus with 12 samples.

Results

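The SERPINB9 copies are the 5 symbols *SERPINB9*, *SERPINB9.1*, *SERPINB9.2*, *SERPINB9.4* and *SERPINB9.5* of the rlog table, the regularised log2 values that the authors deposited. They were taken by name from the 11896 symbols of that table, in which guinea pig loci carry the symbol of their human orthologue and further loci of the same symbol carry a number. All 5 lie above the minimum of 200 counts over all animals that the table was filtered on. The symbol whose number falls between *SERPINB9.2* and *SERPINB9.4* was not analysed here. The 5 were chosen by their difference between the groups and by how far they moved together, both known from these same animals. Liver RNA was sequenced from 6 controls and from 6 guinea pigs with NASH. All were female Dunkin Hartley animals, 10 weeks of age on arrival. The NASH animals were fed a diet high in fat, sucrose and cholesterol and the controls a chow diet, for 25 weeks in both groups. The NASH animals were those chosen for bridging fibrosis, the controls had neither NASH nor fibrosis, and the livers were not perfused. Diet and disease therefore cannot be told apart. Animals carry the numbers 5, 10, 31, 32, 45 and 56 (controls) or 2, 9, 11, 20, 41 and 65 (NASH).

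Human SERPINB9, also called proteinase inhibitor 9, is an intracellular serpin of clade B. Serpins act as bait for a protease, which cuts the reactive loop and is trapped in an inactive complex. The protease that SERPINB9 is best known for is granzyme B, the death-inducing protease that cytotoxic T cells and NK cells deliver to their targets. Cytotoxic lymphocytes, dendritic cells and endothelial cells are known to carry it, and it shields them from granzyme B. In rodents the single human gene corresponds to a family of neighbouring paralogues, so that several loci can share its symbol.

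The count rows behind the symbols are loci that the authors assembled with StringTie, which numbers loci in genome order. Their coordinates were not used here. *SERPINB9*, *SERPINB9.1* and *SERPINB9.2* stand on loci 16486, 16488 and 16489, close to *SERPINB6* on locus 16497. *SERPINB9.4* and *SERPINB9.5* stand on loci 28131 and 28133, close to *SERPINB1* on locus 28127. Each of the 5 symbols has a count row of its own. The copies thus fell into 2 blocks, 1 close to *SERPINB6* and 1 close to *SERPINB1*. The clade B serpins *SERPINB8* and *SERPINB5.1* stand on loci 8748 and 8750, away from both. In RefSeq's mCavPor4.1 assembly, which is not the genome of the files, *Serpinb1* and *Serpinb6* follow each other with 24 annotated genes between them, of which 10 are protein coding, 10 are pseudogenes and 4 are long noncoding RNAs. None of these has a gene name in that table, and 0 of the 5 copies matched it by symbol. No sequence of the copies was used here.

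Library totals ran from 16980274 to 28636467 counts for controls and from 23704607 to 33091460 for NASH. Levels are given as CPM, an animal's counts divided by its library total and TMM factor and brought to a common size, with factors of 0.804 to 0.875 for controls and 1.116 to 1.241 for NASH. The limit that a count of 0 allows is 3 counts, or up to 0.214 CPM in controls and up to 0.105 CPM in NASH, and covers counting error only. The hepatocyte genes written down for the tissue were found for 7 of 8, *ALB*, the major plasma protein of hepatocytes, having the highest CPM. Their summed level was 101000 to 129000 CPM in controls, against 37600 to 63300 CPM in NASH. Row lengths were not used here. Shares of reads, sums over rows and the highest CPM of a list therefore describe reads, which a longer row collects more of, and do not rank transcripts by their level.

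*SERPINB9.4* stood out among the copies. In controls its CPM was 20.6 in the lowest animal, 33.8 at the median and 37.3 in the highest. In NASH it was 232.0 in the lowest animal, 265 at the median and 383 in the highest. Every animal with NASH was several times above every control, the lowest being animal 11 and the highest animal 9. The mean rose from 31.03 ± 7.19 CPM (SD, n = 6) to 282 ± 56.9 CPM (SD, n = 6), a 9.08-fold difference, and the fitted log2 fold change was 3.18 (SE 0.18). The log2 fold change of *SERPINB1*, close to it in the same block, was 1.49. Since the copies were chosen by this difference, these values and those of the other copies are descriptions without a test. In bulk liver, more cells that carry a transcript and more of it in each cell cannot be told apart.

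*SERPINB9.5*, the other copy in the block beside *SERPINB1*, was also higher in every NASH animal than in any control. Its CPM was between 3.53 and 5.63 in controls, with a median of 5.10, and between 7.29 and 10.6 in NASH, with a median of 9.96. The mean was 4.88 ± 0.741 CPM (SD, n = 6) in controls and 9.46 ± 1.32 CPM (SD, n = 6) in NASH, 1.94-fold higher, with a log2 fold change of 0.96 (SE 0.13). The lowest NASH animal was number 20.

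*SERPINB9.1* showed the same separation of the groups at far fewer reads. Controls had between 3 and 19 counts and NASH animals between 42 and 58. In CPM, controls had 0.214 in the lowest animal, 0.643 at the median and 0.838 in the highest, and NASH animals had 1.38, 1.59 and 1.72. The log2 fold change was 1.42 (SE 0.28), or 2.72-fold between the means. Within NASH the animals lay close together, with a coefficient of variation of 9.80%, against 47.4% in controls. The variance between NASH animals was 0.470 times that which counting error alone gives.

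*SERPINB9.2* differed least among the 4 copies that do not rest on 1 animal. Its CPM was 3.64, 5.31 and 7.64 in the lowest, median and highest control and 6.97, 7.92 and 10.4 in NASH. Control 10, the highest of its group, lay above NASH animal 2, the lowest of its group, so that the groups overlapped. The log2 fold change was 0.60 (SE 0.16), a 1.52-fold difference of means.

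The row with the plain symbol, *SERPINB9*, was carried by a single animal. Controls had between 0 and 15 counts, 34 in all, and 2 of them had none. In NASH, animal 20 had 173 counts and the other 5 animals between 5 and 15, 50 in all. The CPM of animal 20 was 5.39, 11.8-fold that of the next animal with NASH. Without it the NASH mean was 0.303 ± 0.115 CPM (SD, n = 5), against 0.318 ± 0.382 CPM (SD, n = 6) in controls. The fitted log2 fold change fell from 1.90 (SE 1.07) with all animals to 0.01 (SE 0.69) without animal 20. Over the copies, animal 20 had the highest NASH level of *SERPINB9* and *SERPINB9.2*, the fifth of *SERPINB9.1* and *SERPINB9.4* and the lowest of *SERPINB9.5*.

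**Figure D1:**
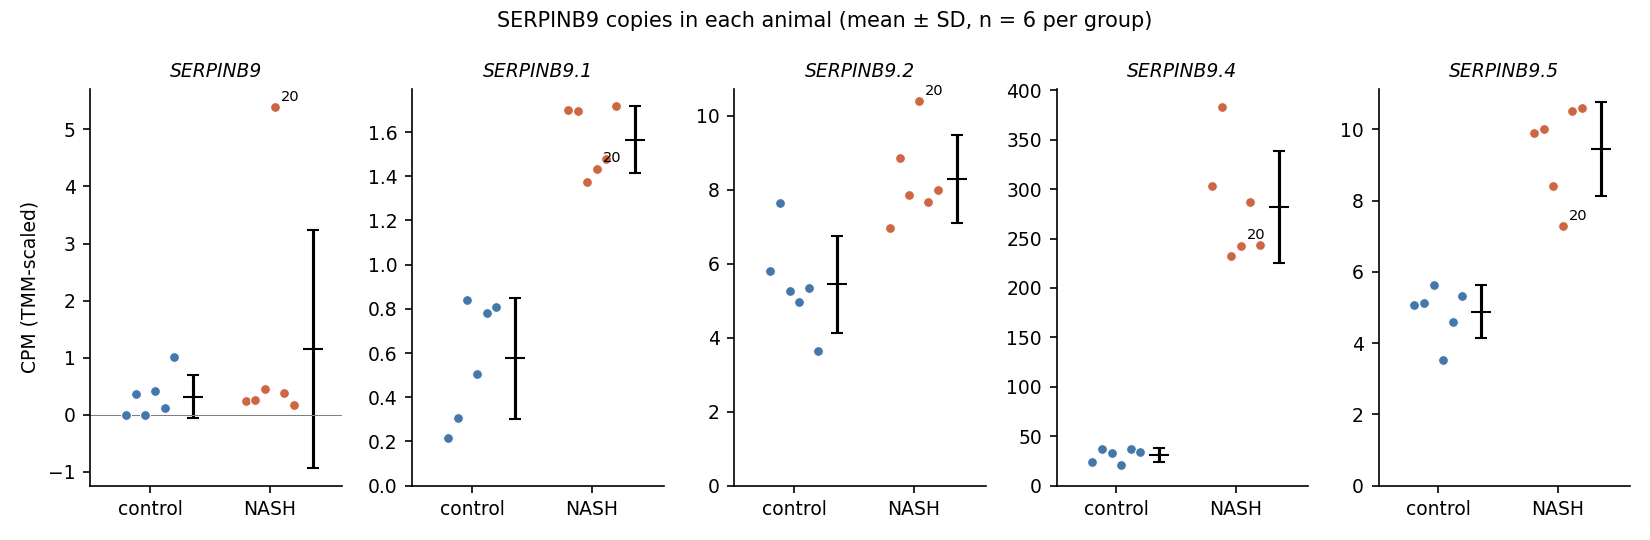
Level of each SERPINB9 copy in CPM (vertical axis, a separate linear scale for each copy) in 6 controls (blue) and 6 animals with NASH (orange), with the mean and SD beside the points (the SD bars of *SERPINB9* reach below 0, which no level can) and NASH animal 20 marked. The groups are apart for *SERPINB9.1*, *SERPINB9.4* and *SERPINB9.5*, and the NASH mean of *SERPINB9* rests on animal 20 at 5.39 CPM.

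In 3 of the 5 copies, the CPM of all NASH animals lay above that of all controls, as it did in 18.4% of all genes tested. By edgeR's test at an adjusted p under 0.05, 53.9% of all genes tested differed in either direction. The first count uses the contrast the copies were known for and is given as a description. The log2 fold change was above 0 for all 5. Scaling by library size without TMM factors moves the median over all genes from 0.00 to 0.48 (log2), and the calls from 3318 higher and 3093 lower to 7603 higher and 911 lower. Under that scaling the log2 fold changes were 2.39 for *SERPINB9*, 1.88 for *SERPINB9.1*, 1.08 for *SERPINB9.2*, 3.66 for *SERPINB9.4* and 1.43 for *SERPINB9.5*.

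The copies also changed relative to each other, which no scaling of the libraries can alter. Of the reads on the 5 rows, *SERPINB9.4* took 68.0% to 77.4% in controls, against 90.8% to 94.8% in NASH. The share of *SERPINB9.2* was 8.08% to 16.7% in controls, against 2.17% to 3.89% in NASH. *SERPINB9.5* went from between 9.58% and 14.7% to between 2.48% and 4.02%. These 3 shares did not overlap between the groups. Read for read, a control had 4.06 to 9.41 counts of *SERPINB9.4* for each count of *SERPINB9.2*, and an animal with NASH 23.4 to 43.4. The ratio of *SERPINB9.5* to *SERPINB9.2* overlapped, with 0.671 to 1.46 in controls and 0.703 to 1.42 in NASH. Summed over the 5 rows, the level was 30.0 to 50.6 CPM in controls, against 250.0 to 404 CPM in NASH, and most reads of that sum are on *SERPINB9.4*.

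**Figure D2:**
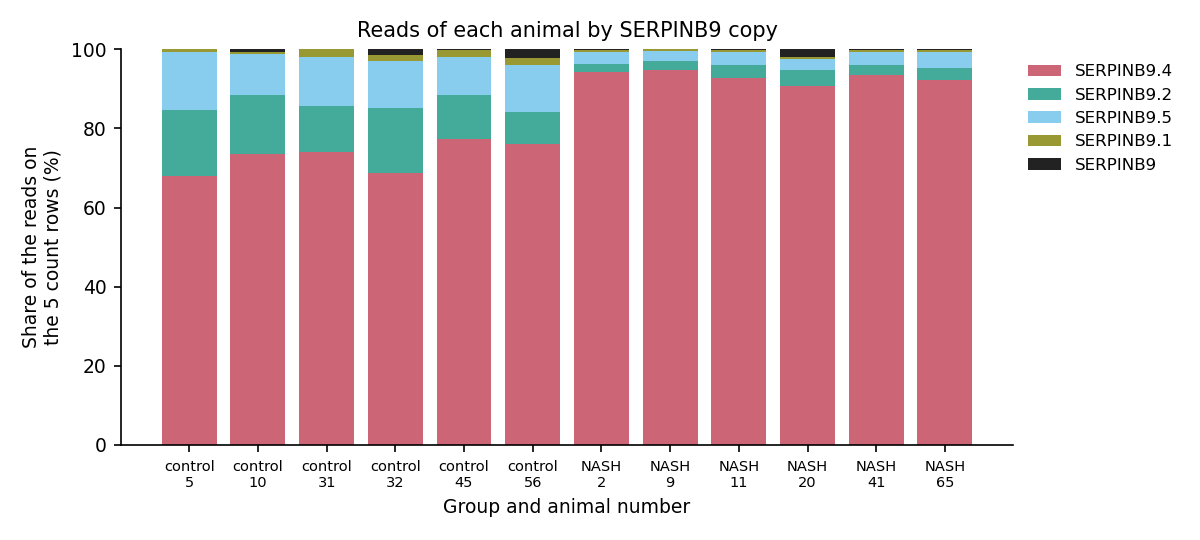
Share of the reads on the 5 count rows that fell on each copy (vertical axis, percent) in each of the 12 animals (horizontal axis, group and animal number). *SERPINB9.4* takes at most 77.4% in a control and at least 90.8% in an animal with NASH, and *SERPINB9* takes at most 2.25%, in control 56.

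The deposited rlog values are drawn towards the mean of their row, most for rows with few counts. Between the group means, the rlog values differed by 2.01 for *SERPINB9.4*, 0.44 for *SERPINB9.5*, 0.28 for *SERPINB9.2*, 0.24 for *SERPINB9.1* and 0.17 for *SERPINB9*. For all 5 copies this was smaller than the log2 fold change of the counts. *SERPINB9.1*, with its 2.72-fold difference, had rlog values of 4.45 to 4.62 in controls, against 4.75 to 4.82 in NASH. Differences in rlog units are therefore not fold changes for these rows.

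**Figure D3:**
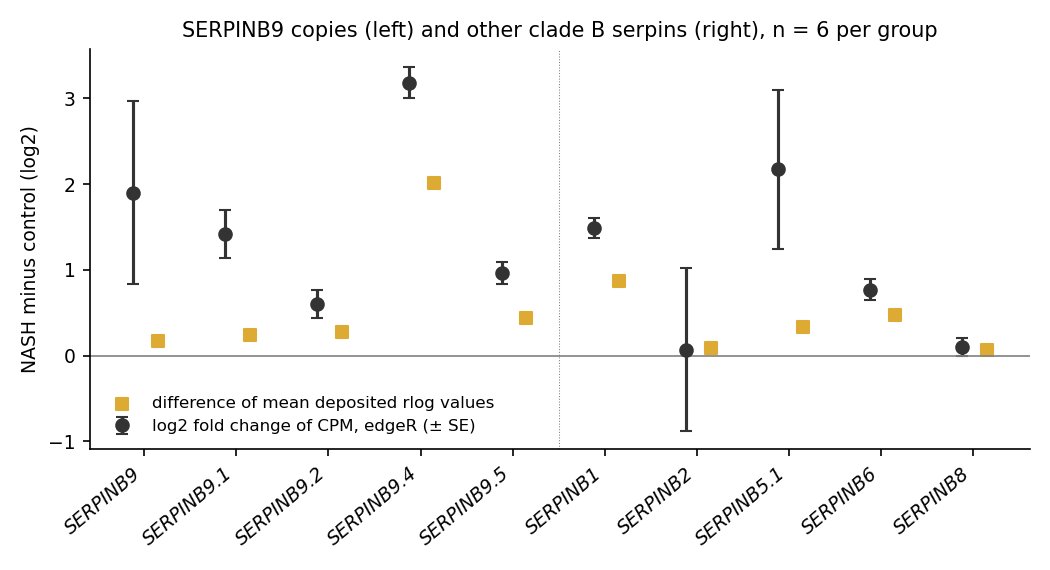
Log2 fold change of NASH against control from edgeR (circles, with SE) and difference of the mean deposited rlog values (squares) for the 5 copies, left of the dotted line, and 5 other clade B serpins, right of it (6 animals per group). *SERPINB9.4* has the highest value on both scales, 3.18 and 2.01.

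Agreement between the copies was looked at within each group, because the groups form separate clusters for several copies. Over the 10 pairs of copies, Pearson's r of the rlog values ranged from −0.68 to 0.64 in the 6 controls, with a median of 0.13. In the 6 NASH animals it ranged from −0.85 to 0.83, with a median of −0.18, which was 0.08 without animal 20. Pairs of either sign occurred in both groups. The pair beside *SERPINB1*, *SERPINB9.4* and *SERPINB9.5*, had an r of 0.64 in controls (Spearman's rho 0.31) and 0.46 in NASH (rho 0.14). Without the 2 animals farthest from the median of *SERPINB9.4*, r of the pair was −0.83 in 4 controls and 0.43 in 4 NASH animals. A negative r also occurred within a block, where *SERPINB9.1* and *SERPINB9.2* had an r of −0.68 in controls (rho −0.66) and −0.29 in NASH (rho 0.03). Without the 2 animals farthest from the median of *SERPINB9.1* the values were −0.17 and 0.18.

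The 2 most extreme values in NASH involved *SERPINB9* and thus animal 20. They were 0.83 with *SERPINB9.2* (rho 0.37) and −0.85 with *SERPINB9.5* (rho −0.77). Without the 2 animals farthest from the median of *SERPINB9* they were 0.07 and −0.57. Among all 10 pairs, 3 had a positive r in both groups. The points of a pair share their library and its depth, and no p-value is given.

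**Figure D4:**
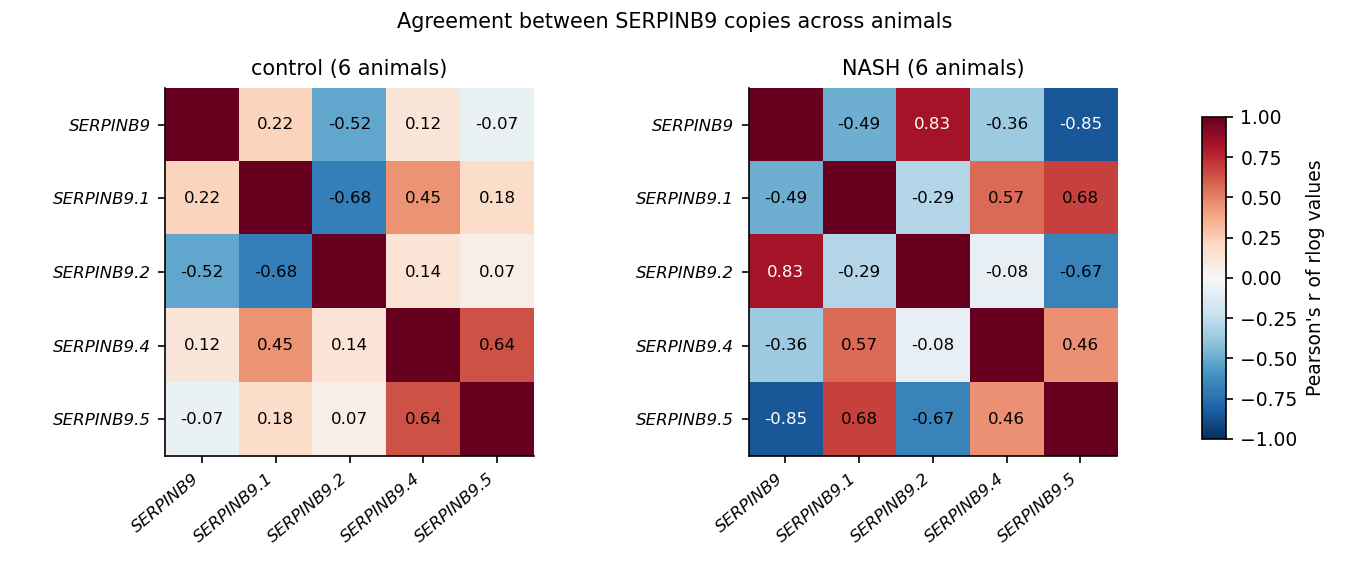
Pearson's r of the deposited rlog values between each pair of copies over the 6 controls (left) and the 6 animals with NASH (right), with the value in each field and colour from −1 (blue) to 1 (red). In controls r lies between −0.68 and 0.64 and in NASH between −0.85 and 0.83, with both signs in each group.

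The genes most like each copy were found by the lower of the 2 within-group values of r, among the other symbols. For *SERPINB9.4* these were *ANO2*, a calcium-activated chloride channel, with r of 0.91 in NASH and 0.88 in controls, and *HLA.DOB* and *HLA.DQB1*, 2 MHC class II symbols that share a count row, with 0.89 and 0.88. No gene reached 0.9 in both groups for *SERPINB9.4*. For *SERPINB9.5* the genes given are *NDUFB9*, a subunit of respiratory complex I (0.94 in NASH and 0.92 in controls), and *CNPY3* (0.90 and 0.90). Without animal 20, r in NASH was 0.85 for *NDUFB9* and 0.75 for *CNPY3*. For *SERPINB9.1* they were *ZNF697* (0.95 and 0.94), *SQSTM1*, the autophagy receptor p62 (0.91 and 0.97), and *RNF208* (0.93 and 0.89). For *SERPINB9.2* they were *GSTO1* (0.90 and 0.90), *WASHC5* (0.95 and 0.81) and *FZD3* (0.82 and 0.79). Without animal 20, r in NASH was 0.64 for *GSTO1* and 0.94 for *WASHC5* and for *FZD3*. Those of *SERPINB9* were *PDZK1IP1* (0.89 and 0.95), *SHISA3* (0.89 and 0.90) and *GNG11* (0.93 and 0.88). Without animal 20, r of these 3 genes over the other 5 NASH animals was 0.12, −0.08 and 0.19. For the genes of *SERPINB9.1* and *SERPINB9.4* it was between 0.87 and 0.94. No gene was named for more than 1 copy. Likeness was taken within the groups, so a gene can differ between them in the opposite direction to its copy. The log2 fold change was −1.88 for *ANO2*, −0.62 for *NDUFB9*, −0.41 for *CNPY3*, −0.87 for *ZNF697* and −0.14 for *RNF208*. It was −0.77 for *GSTO1*, −0.29 for *WASHC5* and −0.72 for *FZD3*. Above 0 were *HLA.DOB* and *HLA.DQB1* (0.21), *SQSTM1* (1.35), *PDZK1IP1* (1.04), *SHISA3* (1.86) and *GNG11* (0.61). These genes were picked for values of r among the highest of 11891, over 6 animals per group.

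The other clade B serpins were tested over all genes with edgeR's quasi-likelihood test. Of the 12 written down, 5 were in the table, 2 of them higher in NASH and none lower, where 27.9% of all genes tested were higher and 26.0% lower. The median of the 5 was 0.77, beside 0.00 for all genes. Changes of a gene are given below as log2 fold changes of NASH over control. *SERPINB1*, an inhibitor of neutrophil elastase and cathepsin G, rose from 12.7 ± 2.11 to 35.8 ± 4.52 CPM (n = 6 each, ± SD), on the log2 scale by 1.49 (edgeR, SE 0.12 and adjusted p = 7.51e-07). *SERPINB6*, an inhibitor of cathepsin G, rose from 36.2 ± 4.60 to 61.9 ± 10.2 CPM (n = 6 each, ± SD), on the log2 scale by 0.77 (edgeR, SE 0.12 and adjusted p = 0.000137). These are the 2 genes on the loci close to the SERPINB9 copies, and in both every NASH animal lay above every control.

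*SERPINB8*, an inhibitor of furin, was at 38.4 ± 4.83 CPM in controls and 41.1 ± 4.58 CPM in NASH (SD, n = 6 each), with a log2 fold change of 0.10 (edgeR, SE 0.10 and adjusted p = 0.414). With library size alone its log2 fold change was 0.58 (adjusted p = 0.000148 from edgeR). *SERPINB5.1*, a copy of maspin, had no count in NASH animals 11 and 65 and between 68 and 117 counts in the other 4, and between 3 and 20 counts in controls. Its log2 fold change was 2.17 (edgeR, SE 0.93 and adjusted p = 0.0646), and with DESeq2 the adjusted p was 0.0384. Over the other settings its edgeR adjusted p fell to 0.0169 without NASH animal 11 and 0.0172 without animal 65, and with limma-voom its log2 fold change was 0.48 (adjusted p = 0.822). *SERPINB2*, the inhibitor of urokinase, was at 4.67 CPM in control 10 and at most 0.337 CPM in the other controls, and between 0.442 and 1.47 CPM in NASH. Its log2 fold change was 0.07 (edgeR, SE 0.95 and adjusted p = 0.954) with all animals, and 2.63 (adjusted p = 0.0076 from edgeR) without control 10.

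*SERPINB9.4* had a higher log2 fold change than each of these 5 genes. For each count of *SERPINB1*, which stands on the same block of loci, a control had 1.81 to 2.95 counts of *SERPINB9.4* and an animal with NASH 7.14 to 9.52. For *SERPINB6* this ratio was 0.471 to 1.14 in controls, against 3.55 to 8.15 in NASH.

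The cytotoxic granule genes include the protease that human SERPINB9 inhibits. Of the 16 written down, 13 were found, as 20 symbols with their numbered copies. By edgeR's test 13 symbols were lower and 2 higher, where 26.0% of all genes tested were lower and 27.9% higher, and the list's median was −0.72. The lower symbols hold 6 rows of granzyme B and, also copies of 1 gene, *GZMH.1* and *GZMH.3*. Such copies are not independent members to set beside the shares over all genes. The other lower symbols were *GZMK*, *PRF1*, *NKG7*, *CTSC* and *LAMP1*. Granzyme B itself is spread over *GZMB* and 5 numbered copies, and all 6 were lower, with log2 fold changes between −1.24 and −0.69 (adjusted p between 0.0038 and 0.0381 from edgeR). *GZMB.3* fell most, from 14.3 ± 6.31 to 6.04 ± 2.06 CPM (n = 6 each, ± SD), a log2 difference of −1.24 (edgeR, SE 0.30 and adjusted p = 0.0038). Summed over the 6 rows, granzyme B was 92.1 to 260.0 CPM in controls, against 46.3 to 122 CPM in NASH, so that the groups overlapped. Whether the products of the 5 SERPINB9 copies inhibit granzyme B is not known from these data, since they carry the name by orthology alone. The 6 rows are named after their values were seen, and near-identical copies may have lost reads to the removal of multimapped reads.

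The granzyme B calls moved with single animals and with the scaling. Without control 56, 1 of the 6 rows passed the threshold (adjusted p between 0.00791 and 0.0924 from edgeR), and 9 of the 20 cytotoxic granule symbols did. The log2 fold changes of the 6 granzyme B rows were then between −1.01 and −0.47. Without NASH animal 41, 2 rows passed, with log2 fold changes between −1.21 and −0.65. It was 3 rows without NASH animal 2 (between −1.13 and −0.58) and 3 without NASH animal 11 (between −1.17 and −0.66). Testing every row with at least 1 count left 1 of the 6 rows past the threshold, at log2 fold changes between −1.16 and −0.61. With library size alone, 1 row passed (between −0.79 and −0.24), and of the 20 symbols 3 were higher and 4 lower. *CTSC*, the protease that activates granzymes, fell from 236 ± 44.1 to 114 ± 8.30 CPM (n = 6 each, ± SD), a log2 difference of −1.06 (edgeR, SE 0.12 and adjusted p = 8.01e-06), without overlap between the groups. *SRGN*, the granule proteoglycan serglycin, went the other way with 1.01 (edgeR, SE 0.20 and adjusted p = 0.00108). *LAMP1*, a lysosomal membrane protein of most cells, had the highest CPM of the list and fell by 0.70 on the log2 scale (edgeR, SE 0.09 and adjusted p = 3.25e-05).

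Of the 18 caspases, death receptors and substrates of granzyme B or caspases written down, 11 were found. Beside 27.9% higher and 26.0% lower over all genes, 6 of them were higher and none lower, the median being 0.43. With library size alone, 10 were higher. *CASP4*, an inflammatory caspase whose row carries another symbol as well, rose by 1.32 (edgeR, SE 0.23 and adjusted p = 0.00033). *GSDMD*, the pore-forming protein that inflammatory caspases cut, rose by 1.25 (edgeR, SE 0.10 and adjusted p = 5.12e-07). *LMNB1*, a nuclear lamin, rose by 0.92 (edgeR, SE 0.22 and adjusted p = 0.00384), and the death receptor *FAS* by 0.43 (edgeR, SE 0.09 and adjusted p = 0.00133). *FAS* had the highest CPM of the list with the means of both groups added, but in controls it was at 43.0 CPM and *PRKDC* at 44.5.

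NF-kB, AP-1 and interferon signalling, through which *SERPINB9* is known to be induced, was covered by 17 of 18 genes. There were 10 higher and 1 lower, beside 27.9% and 26.0% of all genes tested, and the median was 0.37. *RELB* and *NFKB2*, the pair of the noncanonical NF-kB pathway, rose by 2.07 (edgeR, SE 0.21 and adjusted p = 5.41e-06) and 1.40 (edgeR, SE 0.11 and adjusted p = 7.61e-07). The AP-1 factor *FOSL1* rose by 1.58 (edgeR, SE 0.15 and adjusted p = 3.11e-06). The 6 genes not past the threshold, named after their values were seen, were *JUN* (−0.33), *JUND* (−0.23), *JUNB* (0.18), *FOS* (0.36), *IRF1* (0.01) and *NFKBIA* (0.32). The 1 lower gene was *STAT2*, by 0.41 (edgeR, SE 0.06 and adjusted p = 0.000163). The part of these pathways in the level of the SERPINB9 copies was not tested.

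**Figure D5:**
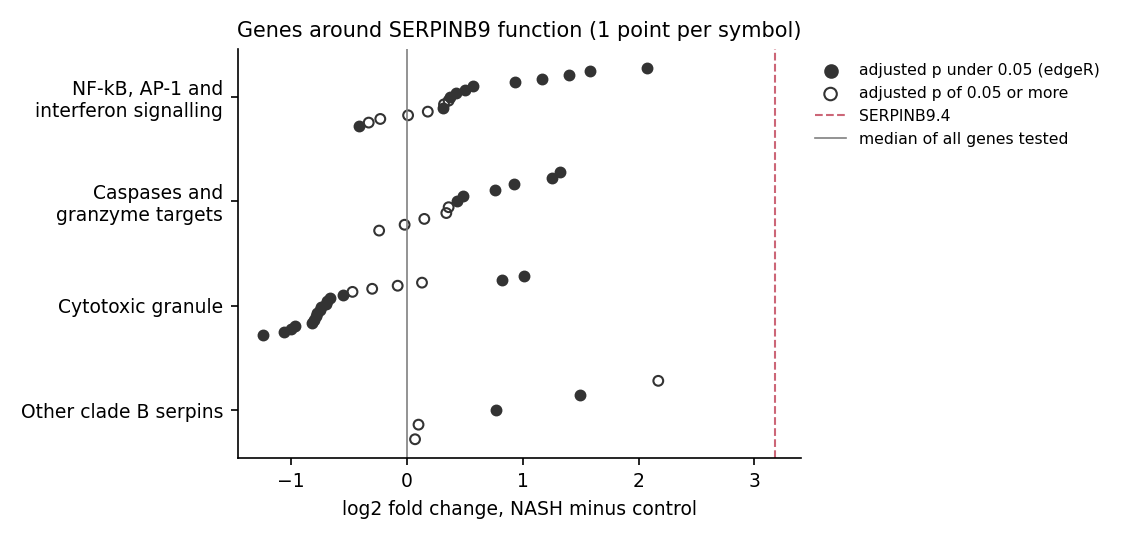
Log2 fold change of NASH against control (horizontal axis) of the genes of 4 written lists (rows, 1 point per symbol), filled where the adjusted p from edgeR was under 0.05, with the median of all genes tested (grey line, 0.00) and *SERPINB9.4* (dashed line, 3.18). Of the cytotoxic granule symbols 13 are lower, 6 of them rows of granzyme B, and 2 higher, and all points lie left of *SERPINB9.4*.

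Markers of cell types of the liver are given beside the copies, and their counts of higher and lower genes stand against 27.9% higher and 26.0% lower over all genes tested. Of the T and NK cell markers, 8 of 12 were found as 9 symbols, 1 higher and 5 lower in NASH, and their summed level was 74.3 to 123 CPM in controls, against 39.6 to 69.0 CPM in NASH. *CD3E* fell by 1.06 on the log2 scale (edgeR, SE 0.24 and adjusted p = 0.00242), and it had the highest CPM of these. Without it the sum of the other 8 symbols was 19.7 to 29.3 CPM in controls, against 14.4 to 21.3 CPM in NASH, so that the groups overlapped. *CD3D* (−0.13, adjusted p = 0.718 from edgeR), *CD3G* (−0.36, adjusted p = 0.0693) and *CD2* (0.04, adjusted p = 0.884), of T cells too, did not pass the test and were named after their values were seen. *KLRK1* fell by 0.85 (edgeR, SE 0.20 and adjusted p = 0.00272), a call lost with library size alone (adjusted p = 0.0917), whereas *CD8A* rose by 1.29 (edgeR, SE 0.26 and adjusted p = 0.00111). Dendritic cell markers were found for 6 of 8, 2 higher and 1 lower, shares near those of all genes, with a summed level of 19.2 to 26.6 CPM in controls, against 24.5 to 30.9 CPM in NASH. *FLT3* rose by 1.69 (edgeR, SE 0.43 and adjusted p = 0.005) and *FSCN1* by 1.06 (edgeR, SE 0.16 and adjusted p = 0.000115). *ZBTB46* fell by 0.38 (edgeR, SE 0.08 and adjusted p = 0.00117), but with library size alone its value was 0.10. With the means of both groups added, *ZBTB46* had the highest CPM of these, but in NASH it was at 8.63 CPM and *FSCN1* at 12.0. Without *ZBTB46*, the sum of the other 5 dendritic cell markers was 7.5 to 15 CPM in controls, against 16.1 to 21.8 CPM in NASH, so that the groups did not overlap. A sum without *FSCN1* was not taken.

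Endothelial markers were found for 7 of 8, 3 higher and 1 lower, with a summed level of 503 to 690.0 CPM in controls, against 570.0 to 829 CPM in NASH. *VWF*, the clotting glycoprotein of endothelium, rose by 1.46 (edgeR, SE 0.16 and adjusted p = 7.85e-06), *PECAM1* by 0.47 (edgeR, SE 0.12 and adjusted p = 0.00521) and *STAB2* by 0.45 (edgeR, SE 0.12 and adjusted p = 0.00554). *LYVE1*, a marker of sinusoidal endothelium, fell by 0.81 (edgeR, SE 0.14 and adjusted p = 0.000314). *CDH5* (0.00, adjusted p = 0.983 from edgeR), *KDR* (0.24, adjusted p = 0.541) and *CLEC4G* (−0.34, adjusted p = 0.218) did not pass the test. These endothelial markers were named after their values were seen. All 3 B cell markers found of 6 were higher, *CD79B* by 1.62, *CD79A* by 1.49 and *MS4A1* by 1.12, the last not past the threshold without control 31 (adjusted p = 0.052) or NASH animal 65 (adjusted p = 0.0605) by edgeR, with a summed level of 5.87 to 10.9 CPM in controls, against 14.2 to 24.3 CPM in NASH. Neutrophil and mast cell markers were found for 4 of 8, 3 of them higher (*S100A9* by 2.04, *KIT* by 1.33 and *CSF3R* by 1.27, whose edgeR adjusted p was 0.0501 without control 10 and 0.0623 without NASH animal 65), with a summed level of 2.70 to 8.01 CPM in controls, against 9.42 to 17.5 CPM in NASH.

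The summed level of the macrophage markers was 403 to 711 CPM in controls, against 1020 to 1350 CPM in NASH, with 3 of the 9 found of 11 higher and 1 lower. *TREM2*, a receptor of lipid-associated macrophages, rose by 7.22 (edgeR, SE 0.59 and adjusted p = 8.89e-07), with 9 counts in control 32 and none in the other controls. Without control 32 its fitted value was 11.32, which depends on the prior count and is no measure of size. *GPNMB* rose by 3.21 (edgeR, SE 0.30 and adjusted p = 3.04e-06), while *MARCO*, of resident macrophages, fell by 1.27 (edgeR, SE 0.31 and adjusted p = 0.00364). Without *GPNMB*, the row of highest CPM, the sum of the other 8 macrophage markers was 389 to 653 CPM in controls, against 589 to 786 CPM in NASH, so that the groups overlapped. Of the macrophage markers named after their values were seen, *CD68* rose by 0.69 (edgeR, SE 0.08 and adjusted p = 9.33e-06) without overlap between the groups, and *C1QA* (0.20), *C1QB* (0.33), *C1QC* (0.19), *CSF1R* (0.41) and *CD14* (0.06) did not pass edgeR's test. Sums without the row of highest CPM also overlapped between the groups for the B cell, neutrophil and mast cell, and endothelial markers, and did not for the cholangiocyte, stellate cell and hepatocyte markers. All 5 cholangiocyte markers found of 6 were higher, *EPCAM* by 3.22, *KRT7* by 3.09, *CFTR* by 3.09 and *KRT19* by 1.64, and their sum was 73.2 to 115 CPM in controls, against 302 to 539 CPM in NASH. Of the 8 stellate cell markers, 7 were higher and 1 lower, with *COL1A1* at 4.21, *RGS5* at 2.62, *COL3A1* at 2.01 and *DCN* at 0.62, and a sum of 680.0 to 818 CPM in controls, against 1470 to 2940 CPM in NASH. Of the 7 hepatocyte markers found, 6 were lower, with log2 fold changes of −2.20 for *TTR*, −1.93 for *CYP2E1* and −1.29 for *ALB*. The 6 mesothelial markers were not among the symbols analysed. The part of these cell types in the level of the SERPINB9 copies was not tested.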

How the data were processed

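Per the paper's methods and the submitters' processing notes, the authors trimmed single reads of stranded mRNA libraries with Trimmomatic 0.38.0 and aligned them to the Ensembl guinea pig genome Cavpor3.0 with HISAT2 2.1.0, setting aside reads with several hits. Loci were assembled and counted by StringTie 1.3.6. The authors deposited raw counts for 39061 loci, which carry no symbols. They also deposited log2 values, made with the rlog transformation of DESeq2 for 11896 human orthologue symbols with at least 200 counts. Reads shared by near-identical copies were thus lost, to an unknown extent for each copy.

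To join symbols to count rows, rlog values were recomputed from the counts with DESeq2 1.42.0, and each symbol was given the nearest row, in rounds until no assignment changed. All 11896 symbols were recovered, from 11031 rows, with differences of at most 8e-07. On simulated data 100% of 3000 symbols were joined to the right row. Counts were tested in R 4.3.3 with edgeR 4.0.16 (TMM factors, whole-table library sizes, robust glmQLFit, glmQLFTest, Benjamini-Hochberg adjustment over 11896 symbols, threshold 0.05), all 12 animals entering. The SE is the absolute log2 fold change over the square root of F. On simulated counts of 11031 genes for this comparison, 100 genes were changed 2-fold and 100 changed 4-fold. There edgeR recovered 81% of those changed 2-fold and 97% of those changed 4-fold, and 3.78% of its calls were on unchanged genes. Far more genes were called in the data, and a shift in scaling was not simulated, so these rates need not hold for them. Spearman's and Pearson's correlations used the deposited log2 (rlog) values. Plots were made in matplotlib 3.10.9 under Python 3.11.15.

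The copies and lists were chosen with earlier results of these data known. Named were all copies, all other clade B serpins found, the 3 genes of each further list with the largest absolute log2 fold change past the threshold, the gene of each list with the highest CPM, and the 3 genes most like each copy. Of these, 2 genes are not reported here. The granzyme B copies, the loci without a symbol and the list genes said to be so were named after their values were seen. Alternatives were RLE factors, library size alone, every row with at least 1 count, filterByExpr, DESeq2, limma-voom 3.58.1 and each animal left out. Sums of marker lists without their row of highest CPM, and correlations without animal 20 for the genes most like the copies, were added after the data were seen.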

Additional observations from a re-analysis of the deposited data

Results flagged for a closer look

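In each group of 6 animals, the highest or lowest CPM was compared with the nearest other animal. The gap was marked where it exceeded 0.625 of the whole range of the group. Chance gives this in about 1 in 20 groups of normally distributed values. CPM need not be so distributed, least of all in rows with few or no counts, so that rate may not hold here. In 144 groups, 17 gaps were marked. Of these, 4 were in the 28 groups of genes picked for their likeness to a copy, and 13 in the other 116 groups. Among the SERPINB9 copies only *SERPINB9* was, with NASH animal 20 at 5.39 CPM and the next animal at 0.459 CPM (gap 0.946 of the range). The genes *PDZK1IP1* (37.1 and next 29.3 CPM, gap 0.637) and *SHISA3* (3.68 and 1.72 CPM, gap 0.679) were highest in animal 20 too, but they were picked for following *SERPINB9*, so this restates how they were picked. *GSTO1*, picked for following *SERPINB9.2*, which is also highest in animal 20, had its highest value there as well (gap 0.749). In controls, *SHISA3* was highest in animal 56 (1.55 and 0.564 CPM, gap 0.636). *SERPINB2* was highest in control 10, at 4.67 CPM with the next control at 0.337 CPM (gap 0.928).

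Of the genes of the lists, *CASP4* was highest in NASH animal 9 (gap 0.683), *FAS* in control 5 (0.630) and NASH animal 41 (0.795) and *KLRK1* in NASH animal 11 (0.672). *TREM2* had counts in control 32 alone (gap 1.0), *GPNMB* was lowest in control 5 (0.728), *MARCO* highest in NASH animal 41 (0.638) and *LYVE1* highest in control 56 (0.707).

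Count rows without a symbol were looked at where their locus number lies within the 2 blocks that hold the SERPINB9 copies, or within 2 of their ends, and where they had at least 200 counts. There were 7, of which 2 were higher in NASH and none lower by edgeR's test over the 31748 rows with at least 1 count. In that test 26.2% of the 18422 rows with at least 200 counts were higher. Locus 28134, next to *SERPINB9.5* on locus 28133, rose from 3.38 ± 0.700 to 16.6 ± 5.92 CPM (n = 6 each, ± SD), on the log2 scale by 2.30 (edgeR, SE 0.22 and adjusted p = 3.01e-06), and control 56 was marked as highest (4.76 and 3.30 CPM, gap 0.760). Locus 16496, next to *SERPINB6*, rose from 0.195 ± 0.115 to 1.68 ± 0.773 CPM (n = 6 each, ± SD), on the log2 scale by 3.04 (edgeR, SE 0.53 and adjusted p = 0.000554). Control 45 had the only control counts of locus 16492 (4.81 CPM, gap 1.0), and control 5 the lowest value of locus 16494, with no count (gap 0.818). What these loci encode is not known here.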

How the results depend on the processing

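No paired analysis was possible because the animals of the groups share no number. The log2 fold change of each of the 5 copies was above 0 under every alternative run, and *SERPINB9* was removed by filterByExpr, which gave no value for it. The value of a copy that moved most was that of *SERPINB9*, from 1.90 to 0.01 without animal 20, and with each animal left out it lay between 0.01 and 2.60. Library size alone, which moves the median of all genes to 0.48, gave 2.39 for *SERPINB9*, 1.88 for *SERPINB9.1*, 1.08 for *SERPINB9.2*, 3.66 for *SERPINB9.4* and 1.43 for *SERPINB9.5*. The median r of the copies in NASH was 0.07 without the 2 farthest animals and between −0.39 and 0.08 with each animal left out. By edgeR's test, 6411 genes were called, and 10813 rows when every row with at least 1 count was tested. With library size alone, 4 other clade B serpins, 7 cytotoxic granule symbols and 10 caspase and granzyme target genes were called, in place of 2, 15 and 6. Cytotoxic granule calls numbered 9 with every row tested and between 9 and 15 with each animal left out, 9 without control 56. The log2 fold change of *SERPINB2* was between −0.21 and 2.63 with each animal left out, and that of *ZBTB46* was 0.10 with library size alone. The cause of these changes was not tested. Rows at or under 3 counts in an animal, as *SERPINB9* was in 3 controls, limit what can be said of single animals.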

Other observations

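Several rows without a symbol in the block beside *SERPINB6* were present in some animals and had no count in others. Locus 16492 had no count in NASH animals 9 and 11 and between 551 and 944 counts in the other 4 NASH animals, and of the controls only animal 45 had any (117 counts). Locus 16494 had no count in NASH animals 2, 41 and 65 and between 442 and 616 counts in the other 3. It had no count in control 5 and between 51 and 92 counts in the other 5 controls. The log2 fold changes of these loci between the groups were 4.14 (edgeR, SE 1.69 and adjusted p = 0.0827) and 1.49 (edgeR, SE 1.39 and adjusted p = 0.439). The 5 SERPINB9 copies, by contrast, had counts in every NASH animal, and only *SERPINB9* lacked them in a control, in 2 of the 6.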
